A study of Mus musculus with 4 samples.

Results

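The fibroblast growth factor (FGF) ligands and receptors described here are 10 mouse genes, the ligand genes Fgf1, Fgf2, Fgf7, Fgf9, Fgf10, Fgf18 and Fgf21 and the receptor genes Fgfr1, Fgfr2 and Fgfr3. They were taken by their symbol in the deposited series table, in which 27223 gene symbols remained after symbols were updated, and they are read by 22 probes. RNA came from cultured vascular smooth muscle cells grown from explants of adult mouse aorta, strain C57BL/6J, genotype EP4-Tg. All cultures shared that genotype and a medium given as 10% DMEM. There were 2 control cultures, without treatment for 24 h, and 2 cultures given prostaglandin E2 (PGE2) for 24 h, each on 1 single-colour Agilent array. EP4 is one of the PGE2 receptors, and it signals through Gs and cyclic AMP. The promoter and species of the EP4 transgene, the age of the mice in weeks and the dose of PGE2 are not given in the sources used here. The series calls the 4 cultures biological replicates but does not say whether they came from separate animals, so the p-values measure the spread between these cultures, which may be technical.

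FGF ligands are secreted proteins that bring together receptor tyrosine kinases at the cell surface, with heparan sulfate chains as partners. The activated receptors signal through the adaptor FRS2 and the RAS and MAP kinase cascade, and Sprouty proteins and dual-specificity phosphatases are induced as brakes. Vascular smooth muscle cells are known to respond to FGF2 by migration and division, and FGF receptor signalling is known to oppose their contractile state. FGF21 is a hormone that acts only on cells with the co-receptor beta-klotho, the product of Klb.

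Intensities are given here as the scanner software's processed spot signal scaled to a common 75th percentile of the 4 arrays. A log2 difference is the mean of the PGE2 arrays minus the mean of the control arrays on that scale, with the standard error of a limma fit (n = 2 per group). By the scanner software's own flag, the share of spots well above background, controls aside, was 47.9% to 53.8% per array, and no such spot was saturated. The number of arrays limits the precision of every value. Of the smooth muscle genes, Acta2 and Tagln were well above background on all 4 arrays and stood at -2.10 ± 0.46 and -1.79 ± 0.35 on the log2 scale with PGE2 (adjusted p = 0.152 and 0.134, limma). Myh11, a defining smooth muscle gene, did not pass the filter described next with any of its 4 probes.

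Of the 22 FGF probes, 8 were well above background on all 4 arrays, 5 on some arrays and 9 on none. Testing required a probe to be flagged above background on the 2 arrays of either group, which left 11 probes of 7 genes. These were 4 ligand genes, Fgf1, Fgf2, Fgf7 and Fgf18, and all 3 receptor genes. Fgf9, Fgf10 and Fgf21 were not tested. None of the 10 genes passed an adjusted p of 0.05 in limma, with 0 higher and 0 lower. Of all 17660 tested genes, 0.396% were called higher and 0.272% lower, 0.668% in all. At an unadjusted p under 0.05, 0 FGF genes were higher and 2 were lower, against 7.31% and 10.5% of all tested genes. These 2 were Fgf18 and Fgf1. Fgf1 passed the filter through the control arrays alone, where it was high, and its value on PGE2 1 was not well above background. Its p and its place in the next count rest in part on that. The PGE2 arrays both lay below both control arrays in 3 of the 7 tested genes (28.3% of all tested genes) and both above in 0 of them (24.0%), and the groups overlapped in 4.

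**Figure D1:**
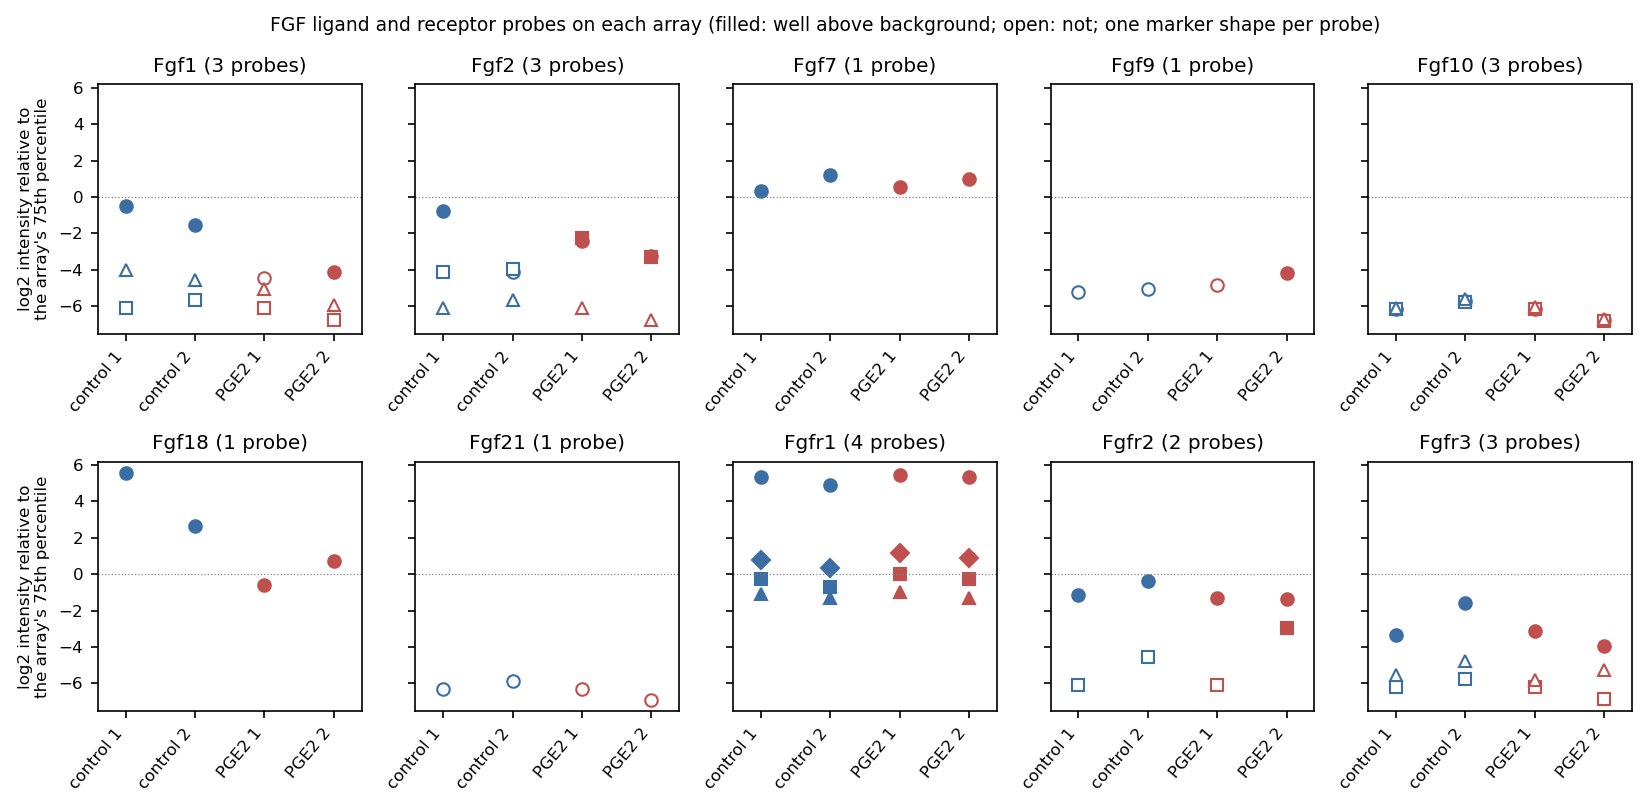
Log2 intensity of every FGF probe on each array, relative to the array's 75th percentile (dotted line at 0), with 1 panel per gene and 1 marker shape per probe. Blue marks are control and red marks PGE2 arrays, filled where the probe was well above background. Fgf18 is 27299 and 3704 in scaled intensity on the control arrays and 387 and 951 on the PGE2 arrays, while all Fgf10 and Fgf21 marks are open.

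Fgf18, in cytoband 11qA4, showed the widest gap between the groups among the 7 tested FGF genes. It encodes a paracrine ligand of the FGF8 subfamily that is best known from growing bone, cartilage and lung. The scaled intensity of its single probe was 27299 in control 1 and 3704 in control 2, against 387 in PGE2 1 and 951 in PGE2 2. All 4 values were well above background and the groups did not overlap, but the control cultures were themselves 7.37-fold apart. Only 0.691% of tested genes had control arrays as far apart. The log2 difference was -4.05 ± 1.11, a 16.6-fold lower mean with PGE2, and 0.198% of tested genes had a difference as low. It did not pass the threshold (adjusted p = 0.201, limma), and the alternatives gave adjusted p from 0.128 to 0.463. Leaving out control 1 gave -2.61, and leaving out control 2 gave -5.49. In bulk RNA like this, fewer cells that express a gene and less RNA per cell cannot be told apart.

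The stretch before the Fgf18 start site is shown because this gene had the widest difference. Beside it are those of Fgf2, whose probes disagreed on control 1, and of the co-receptor gene Klb, described further on. Cyclic AMP acts on many genes through the factor CREB, whose half-site is TGACG. That motif was searched on both strands, where the reverse strand reads CGTCA, in the 250 bases before the start. Sequences are from RefSeq (GRCm38.p6), 5′ to 3′ on the gene's strand, and capitals mark the motif. Fgf18 lies at chr11:33147401-33147650 (minus strand), Fgf2 at chr3:37348403-37348652 (plus strand) and Klb at chr5:65348161-65348410 (plus strand).
Fgf18: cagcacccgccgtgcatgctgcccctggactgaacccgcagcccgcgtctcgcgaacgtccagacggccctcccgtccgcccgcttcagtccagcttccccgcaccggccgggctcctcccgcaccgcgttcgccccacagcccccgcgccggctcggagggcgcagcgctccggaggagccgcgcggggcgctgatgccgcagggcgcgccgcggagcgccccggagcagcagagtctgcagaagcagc
Fgf2: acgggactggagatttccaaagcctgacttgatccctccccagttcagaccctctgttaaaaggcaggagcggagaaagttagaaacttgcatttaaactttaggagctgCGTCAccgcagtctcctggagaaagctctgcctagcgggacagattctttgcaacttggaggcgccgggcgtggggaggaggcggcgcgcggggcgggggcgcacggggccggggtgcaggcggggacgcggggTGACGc
Klb: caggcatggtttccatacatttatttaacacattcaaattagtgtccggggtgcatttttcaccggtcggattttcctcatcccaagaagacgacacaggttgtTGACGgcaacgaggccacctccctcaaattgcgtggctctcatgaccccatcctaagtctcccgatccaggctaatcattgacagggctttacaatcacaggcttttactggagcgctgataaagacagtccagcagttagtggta
The Fgf18 stretch held no match, and 77.2% of its bases were G or C. Fgf2 held 2 matches, which begin 140 bases (reverse strand) and 6 bases (forward strand) before the start, and Klb held 1, which begins 146 bases before it. Of the 8 FGF genes with an entry, 3 had a match (Fgf2, Fgf9 and Fgf21) and 5 had none, while 17.8% of 32851 RefSeq promoter windows of the same length had one. Fgf1 and Fgfr1 had no entry. A match is a run of letters and not evidence of binding.

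Fgf1, in cytoband 18qB3, encodes acidic FGF, a ligand that can bind all the FGF receptors. Its brightest probe read 407 and 198 on the control arrays and 26.9 and 33.3 on the PGE2 arrays. Both control values were well above background, while of the PGE2 values only that of PGE2 2 was. The probe thus passed the filter through the control arrays. The groups did not overlap, and the fitted log2 difference was -3.24 ± 0.41 (adjusted p = 0.0744, limma). With PGE2 1 set to its floor, the dimmest signal counted as well above background on that array, PGE2 was 8.37-fold lower. A p of this kind rests in part on a value that does not measure the gene, which also holds for Fgf2, Fgf12, Flrt3 and Klb. The alternatives gave adjusted p from 0.0639 to 0.266. With normexp background correction and quantile normalization the difference was -1.64. Another probe read 36.4 and 24.6 against 17.5 and 9.38, and the last 8.62 and 11.5 against 8.49 and 5.42. None of these values was well above background, so neither probe measures the gene. As the 36.4 on control 1 lies above that array's floor of 35.7, folds from floors here are not strict bounds.

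The summed smooth muscle, fibroblast, leukocyte and adipocyte markers were also higher on both control arrays than on both PGE2 arrays. For fibroblasts this was mainly through Dcn. The endothelial, mesothelial and Schwann cell sums overlapped between the groups. The summed scaled intensity of 10 fibroblast and adventitial markers was 122129 and 57300 on the control arrays and 20518 and 19442 on the PGE2 arrays. Of these markers 8 or 9 were well above background on each array, and Dpt was on none. Among them Dcn, the gene of the matrix proteoglycan decorin, read 111440 and 47846 against 10859 and 8640 (-2.91 ± 0.46, adjusted p = 0.101, limma). Without Dcn the sum was 10689 and 9454 against 9659 and 10802, and the groups overlapped. Of the 8 tested fibroblast markers 5 were below 0 and 3 were not, and at an unadjusted p under 0.05 Dcn and Lum were lower and Pi16 higher. The sum of 10 smooth muscle markers was 476783 and 277835 against 109548 and 135439, with 6 to 8 of them above background and Myocd on no array. Without Acta2 and Tagln that sum was 77317 and 68878 against 45088 and 48850, and all 6 tested smooth muscle markers were below 0. Control 1 was the highest array for Fgf18, Fgf1 and the smooth muscle (with and without these 2 genes), fibroblast, leukocyte and mesothelial sums. Control 2 was the highest for the endothelial, adipocyte and Schwann cell sums, and PGE2 2 for the fibroblast sum without Dcn. With 4 arrays, no likeness of pattern was tested. Of 10 endothelial markers 3 to 5 were above background, with sums of 845 and 971 against 471 and 925. Endothelial Cldn5, Emcn, Tek and Tie1 were not above background on any array. Of 10 leukocyte markers 5 were above background on each array, with sums of 45161 and 37164 against 35782 and 24006, and Adgre1, Cd52, Fcgr3, Laptm5 and Tyrobp were on none. For adipocytes 2 or 3 of 7 markers were above background, with sums of 773 and 1023 against 343 and 463. For mesothelium 2 or 3 of 5 were, and for Schwann cells 1 of 5. All tested markers were below 0 also for endothelium (3), adipocytes (2), mesothelium (2) and Schwann cells (1). Of 5 tested leukocyte markers 2 were below 0. The median of all tested genes was -0.028. The part of any of these cells in the FGF values was not tested.

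Fgf2, in cytoband 3qB, encodes basic FGF, a ligand stored in the matrix and released by injured smooth muscle. It is read by 3 probes, of which 2 passed the filter, and their differences had opposite signs. The brighter probe read 338 in control 1 and 33.6 in control 2, the latter not well above background, against 110 and 60.3 with PGE2. Both PGE2 values thus lay between the control values, which were 7.17-fold apart with control 2 at its floor. The fitted difference was -0.39 ± 1.20, with a 95% interval from -3.68 to 2.90 (adjusted p = 0.891, limma). With control 1 left out it was 1.28, and with control 2 left out -2.05. The other probe read 33.2 and 38.0, both not well above background, against 120 and 58.1, both well above it. The 2 probes thus read alike on control 2, PGE2 1 and PGE2 2, and differed on control 1, at 338 and 33.2. With both control arrays at their floors, PGE2 was 2.03-fold higher on the other probe. That probe passed the filter through the PGE2 arrays alone. Its adjusted p was 0.251 in limma when every kept probe was fitted on its own, against control values that do not measure the gene. The remaining Fgf2 probe, designed on another transcript record, gave no value well above background.

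Fgf7, in cytoband 2qF1, encodes keratinocyte growth factor, which cells of the connective tissue make and which acts on epithelia through a splice form of FGFR2. Its probe read 739 and 1324 on the control arrays and 851 and 1169 on the PGE2 arrays, all well above background. The PGE2 values lay inside the range of the control values, and the difference was 0.012 ± 0.36 (adjusted p = 0.990, limma). Its 95% interval ran from -0.99 to 1.01, so a true difference anywhere in that range remains possible. The interval is not a detection limit.

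Signals of the remaining ligands were at or near background. The Fgf9 probe (cytoband 14qC3) read 15.7 and 17.8 on the control arrays and 20.6 and 32.4 on the PGE2 arrays, and only the last was well above background. FGF9 is a ligand made by epithelial and mesothelial cells in development. For Fgf10, a mesenchymal ligand of the same FGFR2 splice form as FGF7, 3 probes (cytoband 13qD2.3) read between 5.21 and 11.8 on all arrays. The single probe of Fgf21 (cytoband 7qB4) read 7.49 and 9.97 against 7.49 and 4.87. None of the Fgf10 and Fgf21 values was well above background. The Fgf10 and Fgf21 probes differed between the groups by -0.53 to -0.52 on the log2 scale, a like value for 4 probes below background, and these are not measurements of the genes.

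Of the receptor genes, Fgfr1 (cytoband 8qA2), the FGF receptor gene best known from smooth muscle and other mesenchymal cells, was measured by 4 probes on all 4 arrays. The brightest read 23776 and 17636 on the control arrays and 25560 and 23337 on the PGE2 arrays. The groups overlapped, and the difference was 0.25 ± 0.22 (adjusted p = 0.589, limma; 95% interval -0.34 to 0.84). The other 3 probes differed by 0.047, 0.38 and 0.48, with adjusted p from 0.404 to 0.929 when every kept probe was fitted. Of them, 2 read 482 and 359 against 595 and 492, and 1000.4 and 723 against 1300 and 1076. On these both PGE2 values were above both control values, as in 24.0% of all tested genes. All 4 probes stood above 0 under each of the 5 scalings tried, by 0.043 at the least and 0.73 at the most. The 0.73 came from the authors' scaled signal, on which the median of all tested genes was 0.23.

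Fgfr2 (cytoband 7qF3), whose splice forms receive either epithelial or mesenchymal ligands, read 267 and 441 on the control arrays and 232 and 223 on the PGE2 arrays with its brighter probe. The PGE2 values were close to each other and below both controls, with a difference of -0.59 ± 0.29 (adjusted p = 0.382, limma; 95% interval -1.39 to 0.21). Leaving out control 2 gave -0.23 and leaving out control 1 gave -0.96. The second Fgfr2 probe read 8.70 and 24.7 against 8.57 and 74.9, and was well above background on PGE2 2 only.

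Fgfr3 (cytoband 5qB2), a receptor gene best known for restraining the growth of bone, was dim. Its brightest probe read 57.8 and 195 on the control arrays and 65.8 and 37.8 on the PGE2 arrays, all well above background. The value of control 2 was 3.38-fold that of control 1, and the groups overlapped. The difference was -1.09 ± 0.69 (adjusted p = 0.475, limma; 95% interval -2.97 to 0.79). It was -1.97 when control 1 was left out and -0.21 when control 2 was. The other 2 probes of Fgfr3 gave no value well above background.

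**Figure D2:**
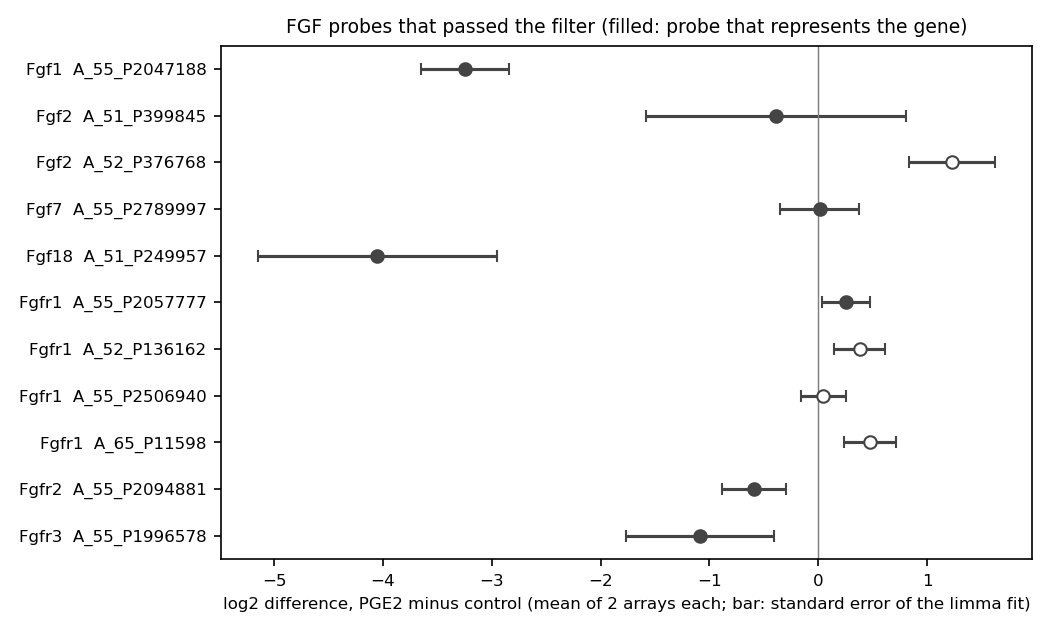
Log2 difference, PGE2 minus control, for the 11 FGF probes that passed the filter, with bars for the standard error of the limma fit to every kept probe (n = 2 arrays per group). Filled points mark the probe that stands for the gene; Fgf18 at -4.05 and Fgf1 at -3.24 lie apart from the receptor probes, and the 2 Fgf2 points lie on opposite sides of 0.

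**Figure D3:**
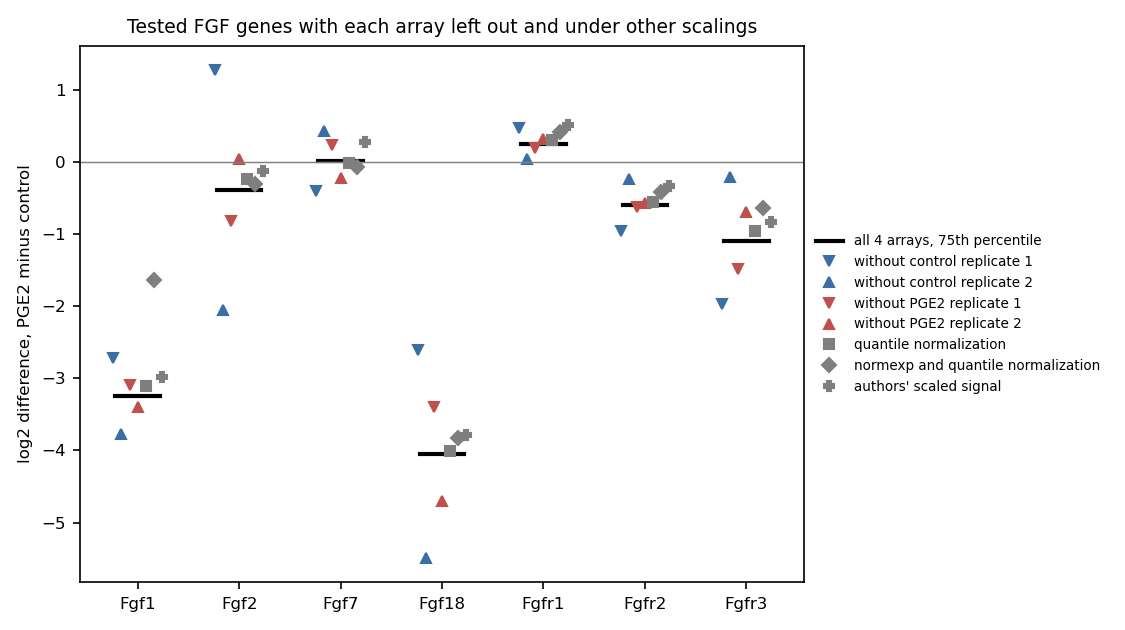
Log2 difference of the 7 tested FGF genes, with each array left out in turn (triangles) and under other scalings (grey), beside the value from all 4 arrays (black bar). Fgf18 spans -5.49 to -2.61 and Fgf1 -3.77 to -1.64, while Fgf2 and Fgf7 cross 0.

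The wider FGF pathway was described with 92 further genes in 6 classes, of which 72 were tested. Of these 1 was called higher, Klb, and 1 lower, Hs6st2 (0.396% and 0.272% of all tested genes). Klb passed the filter through the PGE2 arrays alone, and with the filter for all 4 arrays it was not tested. At an unadjusted p under 0.05, 11 were higher and 10 lower, against 7.31% and 10.5% of all tested genes. Their median log2 difference was 0.039, against -0.028 over all tested genes. On the authors' deposited scaled signal the median of all tested genes was 0.23, so differences on that scale are to be read against that value.

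Klb, which encodes the FGF21 co-receptor beta-klotho, was the 1 called rise. Its brighter probe read 8.44 and 11.6 on the control arrays, not well above background, and 107 and 109 on the PGE2 arrays, well above it. It passed the filter through the PGE2 arrays alone, and with the filter for all 4 arrays it was not tested. PGE2 was 2.64-fold higher with both control arrays at their floors (adjusted p of the fit = 0.0438, limma). That fold sets the PGE2 mean against the dimmest signal counted as well above background on each control array, or the probe's own where higher. It is not a strict bound. The other Klb probe gave no value well above background. The alternatives gave adjusted p from 0.0335 to 0.214, and the call was lost in 7 of 13, among them those that left out control 1 (0.144), control 2 (0.107) or PGE2 1 (0.0503). With normexp and quantile normalization the difference was 1.07 (0.0608). Its hormone ligand gene Fgf21 was at background in both groups, as given above.

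Among the other receptor-related genes, 8 of 11 were tested, with a median of 0.65. That median includes Klb and Flrt3, which passed the filter through the PGE2 arrays alone, where they were high. Flrt1, which encodes a leucine-rich transmembrane protein that can bind FGF receptors, read 1014 and 1117 against 355 and 399. Its difference was -1.50 ± 0.17, just outside the threshold (adjusted p = 0.0635, limma), and a second probe read 791 and 713 against 251 and 254. Ncam1, the gene of a neural cell adhesion molecule that can bind FGFR1, read 1497 in control 1 and 4980 in control 2, against 14374 and 14322 with PGE2. Both PGE2 values were above both controls, and the difference was 2.39 ± 0.62 (adjusted p = 0.188), or 1.53 with control 1 left out. Chosen after the values were seen, Flrt3 encodes a relative of FLRT1 and read 7.47 (not well above background) and 51.9 against 111 and 261, with a fitted difference of 3.11 ± 1.07 (adjusted p = 0.263). With control 1 at its floor the PGE2 mean of Flrt3 was 3.96-fold higher, and normexp with quantile normalization gave 1.53. Flrt2, also added after its values were seen, read 1196 and 1582 against 2014 and 3236, all well above background. Its difference was 0.89 ± 0.31 (adjusted p = 0.269, limma), and 1.65 on a second probe. Fgfr4, the fourth signalling FGF receptor gene, did not pass the filter.

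Heparan sulfate genes supply the chains that hold FGFs on their receptors. Of 21, 19 were tested, with a median of -0.13, and Hs6st2, which encodes a 6-O-sulfotransferase of these chains, fell. Its brightest probe read 14454 and 12003 on the control arrays and 2263 and 2592 on the PGE2 arrays, a difference of -2.44 ± 0.19 (adjusted p = 0.0465, limma). The further probes gave values in the same direction, at 13374 and 11135 against 2156 and 2632 and at 343 and 1071 against 93.6 and 205. The call was lost in 8 of 14 alternatives, with adjusted p from 0.0348 to 0.239 over them. These include each array left out in turn (0.0604 to 0.144) and the mean over its probes (0.0657). The difference was -2.58 to -2.31 with an array left out, and without either control replicate no gene of the whole table was called (2710 and 2963 at an unadjusted p under 0.05). Sulf2, the gene of an extracellular enzyme that removes 6-O-sulfate, read 10201 and 11290 against 21350 and 22009. Its difference was 1.01 ± 0.16 (adjusted p = 0.0973). Sdc1, the gene of the heparan sulfate carrier syndecan 1, stood at 1.42 ± 0.27 (adjusted p = 0.130). Sulf1, whose product acts like that of Sulf2, was picked after its values were seen, and read 27709 and 20269 against 10564 and 11508 (-1.10 ± 0.22, adjusted p = 0.135). Values of these paired enzymes thus lay on opposite sides of 0, and neither passed the threshold.

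Adaptors and kinases of the cascade were all measured. None of the 21 genes was called, by limma, and the median was 0.19. At an unadjusted p under 0.05, 1 was higher and 1 lower, against 7.31% and 10.5% of all tested genes. The docking protein gene Gab1 was the lower one, at -0.70 ± 0.22 (adjusted p = 0.242). Shc1, an adaptor gene, stood at 0.34 ± 0.15 (adjusted p = 0.348).

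Feedback inhibitors gave 0 calls in limma among 10 tested of 12, with a median of 0.021. At an unadjusted p under 0.05, 1 was higher and 1 lower (7.31% and 10.5% of all tested genes). Spred2, which encodes an inhibitor of the RAS cascade, stood at 0.73 ± 0.19 (adjusted p = 0.192, limma). The phosphatase gene Dusp5 read 444 and 194 against 95.5 and 113, a difference of -1.50 ± 0.45 (adjusted p = 0.226). Dusp6, whose product removes phosphate from ERK and is a usual readout of FGF signalling, read 690 and 492 against 410 and 396, a difference of -0.53 ± 0.23 (adjusted p = 0.327). The Sprouty genes Spry1 and Spry2, added after their values were seen, stood at 0.038 ± 0.40 and 0.20 ± 0.18. A second Spry2 probe, well above background on all 4 arrays, had the opposite sign, at -0.57 ± 0.43. It read 293 and 144 against 169 and 114, and the groups overlapped.

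Genes that FGF and other growth factor signals induce also gave 0 calls in limma among 10 tested of 12, with a median of 0.33. At an unadjusted p under 0.05, 3 were higher and 2 lower, against 7.31% and 10.5% of all tested genes. The cyclin D1 gene Ccnd1 read 10391 and 9488 on the control arrays and 2622 and 3265 on the PGE2 arrays. The groups were well apart, at -1.76 ± 0.19 (adjusted p = 0.0616, limma), and it passed with normexp (0.0404) and with an intensity trend (0.0433), in a range of 0.0404 to 0.306 over the alternatives. The immediate early gene Egr1 stood at -0.96 ± 0.18 and Junb, a component of the factor AP-1, at 1.71 ± 0.33 (adjusted p = 0.129 and 0.131). Of the ETS factor genes Etv4 and Etv5, added after their values were seen, Etv4 read 115 and 152 against 250.1 and 290.2 and Etv5 1569 and 2542 against 3222 and 5776. Their differences were 1.03 ± 0.22 and 1.11 ± 0.41 (adjusted p = 0.146 and 0.281).

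Among the other FGF ligand genes, 4 of 15 were tested and 8 gave no value well above background. None was called by limma. At an unadjusted p under 0.05, where 10.5% of all tested genes were lower, 1 of these 4 was. That was Fgf12, which encodes an FGF homologous factor that stays inside the cell, at 71.1 and 69.7 against 24.7 and 34.8 (-1.26 ± 0.23, adjusted p = 0.117), with PGE2 1 not well above background. The probe passed the filter through the control arrays. With PGE2 1 at its floor Fgf12 was 2.03-fold lower, and normexp with quantile normalization gave -0.31. Fgf23, the gene of a phosphate hormone of bone, gave values of 35541 and 28276 against 25737 and 17401 on its single probe (-0.58 ± 0.27, adjusted p = 0.359). With no other Fgf23 probe, whether that signal measures the gene was not tested. Fgf6, a ligand gene of skeletal muscle, stood at -0.37 ± 0.31 (adjusted p = 0.590).

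**Figure D4:**
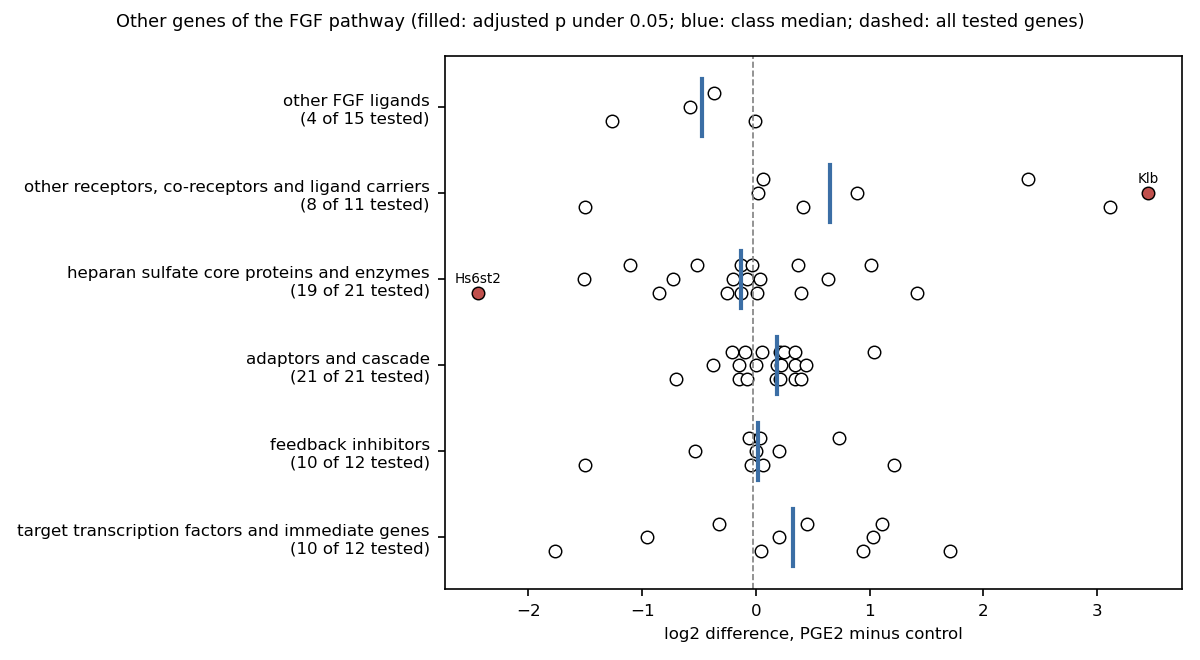
Log2 difference, PGE2 minus control, of the 72 tested genes of the wider FGF pathway by class, with the class median in blue and the median of all tested genes, -0.028, dashed. The 2 filled points are Klb (fitted value 3.45, or 2.64-fold with both control arrays at their floors) and Hs6st2 at -2.44.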

How the data were processed

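Total RNA from 4 cultures was labelled with Cy3 and hybridised to 1 Agilent array each, per the labels' protocols. The deposited scanner files give an intensity for each spot, background-corrected by Feature Extraction, of which the headers name version 11.5.1.1 (design 074809, probe build mm9) and the processing notes of the submitters version 12.0.3.1. In the series table the authors multiplied that intensity by a constant for each array. Its 4 detection columns were not used. Groups were taken from the sample titles.

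Spots with outlier flags were left out (158 of 56605 probes) and spots of a probe averaged. From log2 processed intensities, the 75th percentile of their array was subtracted, so a shift shared by most transcripts would not show. Of the probes, 26100 were kept, with the brightest of them standing for a gene, which gave 17660 tested genes or unnamed probes. PGE2 was compared with control in limma (version 3.58.1, R 4.3.3) with lmFit, eBayes and Benjamini-Hochberg adjustment over all of these (2 residual and 2.15 prior degrees of freedom). Only the limma step was tested on simulated data, in 20 runs with normal noise around the filtered and scaled means. Scaling, the filter and the choice of probe were not simulated. Symbols were updated by gene ID through the RefSeq table of GRCm38.p6, which is not the array's build, so its gene coordinates were not used.

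All 10 FGF genes were described whatever their result. Of the wider list, called genes and the up to 3 genes with the smallest p in each class were named, except 1 gene that is not reported here. The members and lists were chosen with earlier results of these data known. No set test was run. Alternatives were other scalings, background correction, filters, probe rules, an intensity trend, the replicate number as a block and each array left out. As the scanner files hold no mean spot signal, normexp (offset 50) used the median signal.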

Additional observations from a re-analysis of the deposited data

How the results depend on the processing

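With 2 arrays per group, no alternative called any of the 10 FGF genes in limma; the smallest adjusted p was 0.0639, for Fgf1. Directions held for Fgf1, Fgf18, Fgfr1, Fgfr2 and Fgfr3 under all alternatives in which they were tested. Fgf2 turned to 0.42 with the mean of its kept probes and ranged from -2.05 to 1.28 with 1 array left out. Fgf7 turned to -0.017 with quantile normalization and -0.069 with normexp, and ranged from -0.41 to 0.43 with 1 array left out. Over all genes, 70 were higher and 48 lower. On the authors' scaled signal and without the filter on dim probes, 0 were higher and 0 lower in limma (4203 and 2685 at an unadjusted p under 0.05). The filter for all 4 arrays gave 39 and 15. With 1 array left out the counts ranged from 0 to 98 higher and from 0 to 76 lower. They were 0 without either control replicate (2710 and 2963 at an unadjusted p under 0.05). Of the wider FGF genes, called higher were 0, and lower 3, with normexp and quantile normalization, 0 and 2 with an intensity trend, and 0 and 0 on the authors' scaled signal and without the filter. The filter for all 4 arrays left 0 higher, and the mean of kept probes 0 lower. With 1 array left out, 0 to 1 were higher and 0 lower. With the replicate number as a block, 88 genes were higher and 84 lower, 0 of the FGF genes and 0 lower genes of the wider list. Deviations of equal-numbered arrays from their group means correlated at 0.42 over tested genes, but with 2 pairs and no label that ties them, the arrays share only a number. The causes of these differences were not tested. The precision is limited by the number of arrays, and dim probes by their signal over background.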
